A study of Mus musculus with 36 samples.

Results

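Insulin acts on the liver cell through the insulin receptor, a tyrosine kinase that phosphorylates the adaptor proteins Irs1 and Irs2. These recruit phosphoinositide 3-kinase, whose lipid product brings the kinases Akt1 and Akt2 to the membrane, and Akt in turn phosphorylates and holds back the transcription factors of the FoxO family and the kinase Gsk3b. In liver this chain lowers glucose output and favours glycogen and lipid synthesis. The transcripts described here are those of 9 components of the chain, Insr, Irs1, Irs2, Pik3r1, Akt1, Akt2, Foxo1, Foxo3a and Gsk3b, whose probes were found by gene name. A transcript level says nothing of phosphorylation, through which the pathway mainly works.

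Liver RNA came from 36 adult male mice, C57BL/6J by the labels and C57BL/6JOlaHsd by the study's methods, and all of them first ate a mild-high-fat diet with 30% of energy as fat during an adaptation of 3 weeks by the labels, a length for which the study's methods give a shorter time. The 12 mice of the t=0 group were killed at the end of that adaptation. The 12 HF mice stayed on the same diet for another 12 weeks, and the 12 HF-Q mice received it with 0.33% (w/w) quercetin, a plant flavonol, for the same 12 weeks. All mice were fasted for at least 2 h before they were killed. The HF and t=0 groups differ in age as well as in time on the diet, and these cannot be told apart. Each mouse had its own 2-colour Agilent array, with its own cRNA in Cy5 and an equimolar pool of all samples in Cy3.

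Of the 9 components, 8 had probes on the array by the naming rule, 17 probes in all. The authors' table of expressed spots held 15 of them, for 7 genes, among 21781 probes. No probe matched Irs2, which is not analysed here, and the 2 probes of Foxo3a lay outside the table. Levels are the authors' log2 values. They carry a probe-specific constant, so a level is compared between mice and never between probes. A probe is called when its adjusted p is under 0.05 (limma, Benjamini-Hochberg adjustment over all 21781 probes).

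Before the results, 2 arrays stood apart. On the array of HF-Q replicate 2, 96.7% of spots were well above background in Cy5, against 58.1% to 66.3% on the other HF-Q arrays, 56.4% to 67.4% in HF and 58.8% to 63.8% in t=0. That mouse gave the highest HF-Q value for 5 of the 15 probes, most of them dim. On the array of HF replicate 5, the mean log2 level of 7 pancreas markers was 17.38, against at most 8.91 on the other HF arrays, 9.00 in t=0 and 9.33 in HF-Q. The 7 measured hepatocyte markers, among them Alb and Apoa1, were well above background on all 36 arrays. Values without either array stand beside the results they touch. The RNA is that of whole liver, in which fewer cells of a type and less RNA per cell cannot be told apart.

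In HF against t=0, 4 of 15 probes (26.7%) were called, beside 21.3% of all probes. Among the 4 called, 1 probe of Foxo1 and 2 of Pik3r1 fell, and 1 of Irs1 rose. Other probes of these 3 genes were not called. Of the same 15 probes, 2 (13.3%) were called in HF-Q against t=0, beside 11.9% of all probes: a Pik3r1 probe fell and an Akt2 probe rose. None of the 15 was called in HF-Q against HF, beside 2.36% of all probes, and 3 had an unadjusted p under 0.05. These shares lay near those of all probes in each comparison. The 3 comparisons share their mice with each other, so each is given by its own values.

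**Figure D1:**
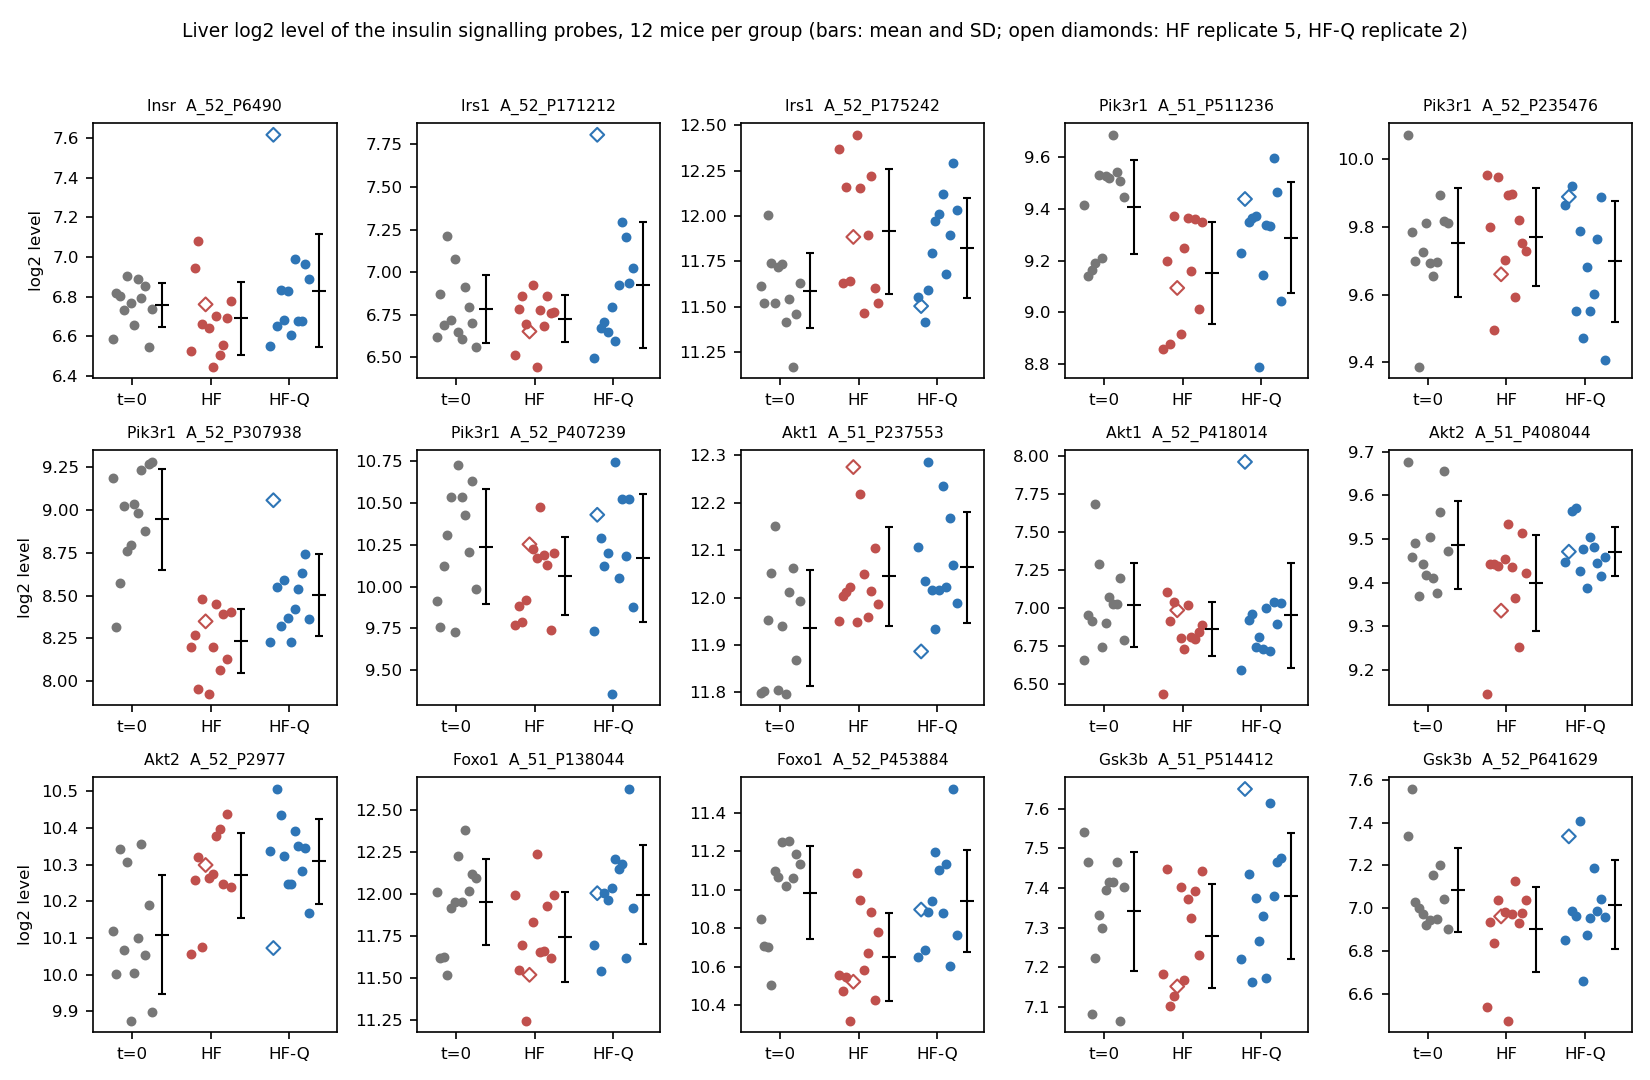
Log2 level of each of the 15 probes (vertical axis, scale differing by panel) in the t=0, HF and HF-Q mice (horizontal axis), 1 point per mouse, with mean and SD over 12 mice beside each group. In the panel of Pik3r1 A_52_P307938 all 12 HF mice lie below the t=0 median of 9.01. The open diamonds mark HF replicate 5 and HF-Q replicate 2, the latter at 7.62 for Insr.

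The promoters of the 3 genes with a called probe in HF against t=0 are shown, though not every probe of these genes was called. They are RefSeq promoters of build GRCm38.p6, from 250 bases before to 50 bases after the annotated start, and 8 of the 9 components had an entry, with 13 promoters in all. Capitals mark a match of an E-box (CACGTG), a FoxO motif (GTAAACA) or a CCAAT box (CCAAT, read as ATTGG where it lies on the other strand). GC boxes (GGGCGG) were counted as well and are not in capitals.
Irs1, chr1:82291390-82291689, minus strand: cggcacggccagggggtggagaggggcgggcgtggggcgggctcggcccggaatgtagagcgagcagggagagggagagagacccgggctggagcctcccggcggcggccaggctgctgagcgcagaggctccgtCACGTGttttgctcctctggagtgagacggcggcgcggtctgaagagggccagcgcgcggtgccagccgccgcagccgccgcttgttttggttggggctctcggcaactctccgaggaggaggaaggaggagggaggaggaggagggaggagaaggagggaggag
Pik3r1, the upstream start, chr13:101768168-101768467, minus strand: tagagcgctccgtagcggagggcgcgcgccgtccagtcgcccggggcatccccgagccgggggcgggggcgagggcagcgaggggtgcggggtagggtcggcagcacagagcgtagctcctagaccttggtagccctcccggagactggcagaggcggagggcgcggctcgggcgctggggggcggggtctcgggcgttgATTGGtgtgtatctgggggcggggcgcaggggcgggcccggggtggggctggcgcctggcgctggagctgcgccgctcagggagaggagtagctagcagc
Pik3r1, the downstream start, chr13:101692581-101692880, minus strand: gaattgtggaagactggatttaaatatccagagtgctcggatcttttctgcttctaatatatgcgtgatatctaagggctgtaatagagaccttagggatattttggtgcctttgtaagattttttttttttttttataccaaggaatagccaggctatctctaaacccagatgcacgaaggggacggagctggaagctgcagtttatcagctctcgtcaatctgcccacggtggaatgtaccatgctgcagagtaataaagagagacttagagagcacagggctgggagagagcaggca
Foxo1, chr3:52268087-52268386, plus strand: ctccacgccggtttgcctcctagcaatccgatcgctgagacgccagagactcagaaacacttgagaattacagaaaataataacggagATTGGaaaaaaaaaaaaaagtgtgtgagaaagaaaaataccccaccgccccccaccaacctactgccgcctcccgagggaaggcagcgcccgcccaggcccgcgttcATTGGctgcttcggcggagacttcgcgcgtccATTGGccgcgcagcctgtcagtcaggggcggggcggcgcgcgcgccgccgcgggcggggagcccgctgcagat
The 2 starts of Pik3r1 differ in base composition. The upstream stretch was 75.7% G and C, with 4 GC boxes and 1 CCAAT box, and the downstream stretch was 43.7% G and C, with none of the motifs searched. The Foxo1 stretch held 3 CCAAT boxes and 5 GC boxes. Of those GC boxes, the ones at positions 2 and 7 share a base. The Irs1 stretch held 1 E-box, at position -115 from the start, and that of Irs2 held 1 at -44. Over all 32851 promoters of this length, on both strands, an E-box occurred in 7.15%, a CCAAT box in 37.4%, a GC box in 35.7% and the FoxO motif in 3.65%. Of the 13 promoters, 1 of Akt1 held the FoxO motif. A match describes the letters only.

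Insr, the receptor itself, was measured by a single dim probe, A_52_P6490 (mm8, chr8:3159473-3159532, minus strand), with Cy5 at 2.48 and Cy3 at 1.80 times the background. Its log2 level (lowest, median and highest of 12 mice) was 6.55, 6.78 and 6.90 in t=0, 6.45, 6.68 and 7.08 in HF, and 6.55, 6.76 and 7.62 in HF-Q. The groups overlapped throughout, and the value of 7.62 was that of HF-Q replicate 2, with the next HF-Q mouse at 6.99. Its log2 difference was -0.07 ± 0.06 (SE, n = 12 and 12; adjusted p = 0.466, limma) in HF against t=0 and 0.14 ± 0.09 (adjusted p = 0.487) in HF-Q against HF, or 0.07 without replicate 2. The 95% interval of the latter ran from -0.05 to 0.33. Another probe, A_52_P494514, carries an older name (D630014A15Rik) that is now a synonym of Insr and falls outside the naming rule. It was brighter, with medians of 10.25 in t=0, 10.09 in HF and 10.23 in HF-Q, and its difference in HF against t=0 was -0.23 ± 0.10 (adjusted p = 0.103), or -0.28 (adjusted p = 0.0333) with slide as a block.

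Irs1, the adaptor that passes the signal from the receptor to phosphoinositide 3-kinase, had 2 probes that did not move together. The bright probe A_52_P175242 (mm8, chr1:82112141-82112200, minus strand) had log2 levels of 11.17, 11.58 and 12.01 in t=0, 11.46, 11.89 and 12.45 in HF, and 11.42, 11.85 and 12.29 in HF-Q. HF lay above t=0 with overlap: 10 of 12 HF mice exceeded the t=0 median and 5 exceeded the highest t=0 mouse. The log2 difference of HF against t=0 was 0.33 ± 0.11 (SE; 95% interval 0.10 to 0.55; adjusted p = 0.0334, limma), or 1.25-fold. With slide as a block it was 0.32 (adjusted p = 0.0745), and HF was higher on 7 of 9 slides, with slide differences from -0.16 to 1.104. The difference in HF-Q against t=0 was 0.23 ± 0.09 (adjusted p = 0.108) and above 0 on 9 of 9 slides, and in HF-Q against HF it was -0.09 ± 0.12 (adjusted p = 0.741). The call in HF against t=0 was also lost in 3 scanner-based settings with loess and with the scanner's processed log ratios, at adjusted p from 0.0648 to 0.0984, and in the methods' t-test at 0.0504.

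The dim Irs1 probe A_52_P171212 lies 3872 bases nearer the 5′ end (mm8, chr1:82116013-82116072) and read 2.66 times background in Cy5. Its medians were 6.71 in t=0, 6.76 in HF and 6.86 in HF-Q, and the groups overlapped. The differences were -0.06 ± 0.07 in HF against t=0 (adjusted p = 0.587) and 0.20 ± 0.11 in HF-Q against HF (adjusted p = 0.379), the latter 0.12 without HF-Q replicate 2. Over the 36 mice, after taking out group means, the 2 probes had a correlation of -0.03. The bright probe minus the dim one was 4.81 ± 0.27 (mean ± SD, n = 12) in t=0, 5.19 ± 0.38 in HF and 4.90 ± 0.48 in HF-Q, a contrast looked at after the values were seen and not tested.

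Pik3r1, the regulatory subunit that stabilises the catalytic subunit of phosphoinositide 3-kinase and docks it on phosphorylated Irs proteins, carried the largest difference of the 15 probes in HF against t=0. Probe A_52_P307938 (mm8, chr13:102789708-102790750, minus strand) had log2 levels of 8.32, 9.01 and 9.28 in t=0, 7.93, 8.23 and 8.48 in HF, and 8.23, 8.48 and 9.06 in HF-Q. All 12 HF mice lay below the t=0 median and 7 lay below the lowest t=0 mouse, so that the ranges overlapped only between 8.32 and 8.48. HF against t=0 was -0.71 ± 0.10 (SE; 95% interval -0.91 to -0.51; adjusted p = 1.10e-05, limma), a level 1.64 times higher in t=0. HF was lower on 9 of 9 slides, by -1.05 to -0.41, and the call held under each of the 13 alternatives run, at -0.83 to -0.59.

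The same probe was lower in HF-Q than in t=0 as well, by -0.44 ± 0.10 (adjusted p = 0.00605), with 11 of 12 HF-Q mice below the t=0 median. HF-Q was lower on 8 of 9 slides, from -0.87 to 0.46, and the call was lost with median centring after normexp, at -0.43 (adjusted p = 0.0585). Without HF-Q replicate 2 the difference from t=0 was -0.49 (adjusted p = 0.00167, limma). Against HF, HF-Q stood at 0.27 ± 0.08 (95% interval 0.09 to 0.44; adjusted p = 0.0979), with 10 of 12 HF-Q mice above the HF median and 6 above the highest HF mouse. That difference did not pass the threshold. The highest HF-Q value, 9.06, was that of replicate 2, and without it the difference was 0.22 (adjusted p = 0.142). With normexp background correction and loess from the scanner signals it was 0.25 and was called, at adjusted p = 0.0284 over the same probes and 0.0402 over all probes of the array.

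The other 3 Pik3r1 probes lie nearer the 3′ end. A_51_P511236 (mm8, chr13:102784708-102784767) had log2 levels of 9.14, 9.48 and 9.68 in t=0, 8.86, 9.18 and 9.37 in HF, and 8.79, 9.34 and 9.60 in HF-Q. It was lower in HF than in t=0, by -0.25 ± 0.08 (adjusted p = 0.0177), with 12 of 12 HF mice below the t=0 median and 5 below its lowest mouse. HF was lower on 8 of 9 slides, from -0.43 to 0.03, and with median centring after normexp the difference was -0.14 (adjusted p = 0.318). The difference in HF-Q against t=0 was -0.12 ± 0.08 (adjusted p = 0.359) and in HF-Q against HF 0.14 ± 0.08 (adjusted p = 0.426).

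A_52_P407239 (mm8, chr13:102786510-102786569), the brightest, had medians of 10.25, 10.15 and 10.19 in t=0, HF and HF-Q, overlapping groups and a difference of -0.18 ± 0.11 in HF against t=0 (adjusted p = 0.261). A_52_P235476 (mm8, chr13:102781860-102781919), the probe nearest the 3′ end and the only 1 of the 4 listed under another RefSeq transcript, had medians of 9.75, 9.77 and 9.72. Its difference in HF against t=0 was 0.02 ± 0.06 (95% interval -0.11 to 0.15; adjusted p = 0.881). The 4 probes thus ran from 0.02 at the 3′ end, through -0.25 and -0.18 at 2848 and 4650 bases from it, to -0.71 at 7848 bases. The genomic coordinates of A_52_P307938 span 1043 bases and those of the other 3 span 60 each.

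**Figure D2:**
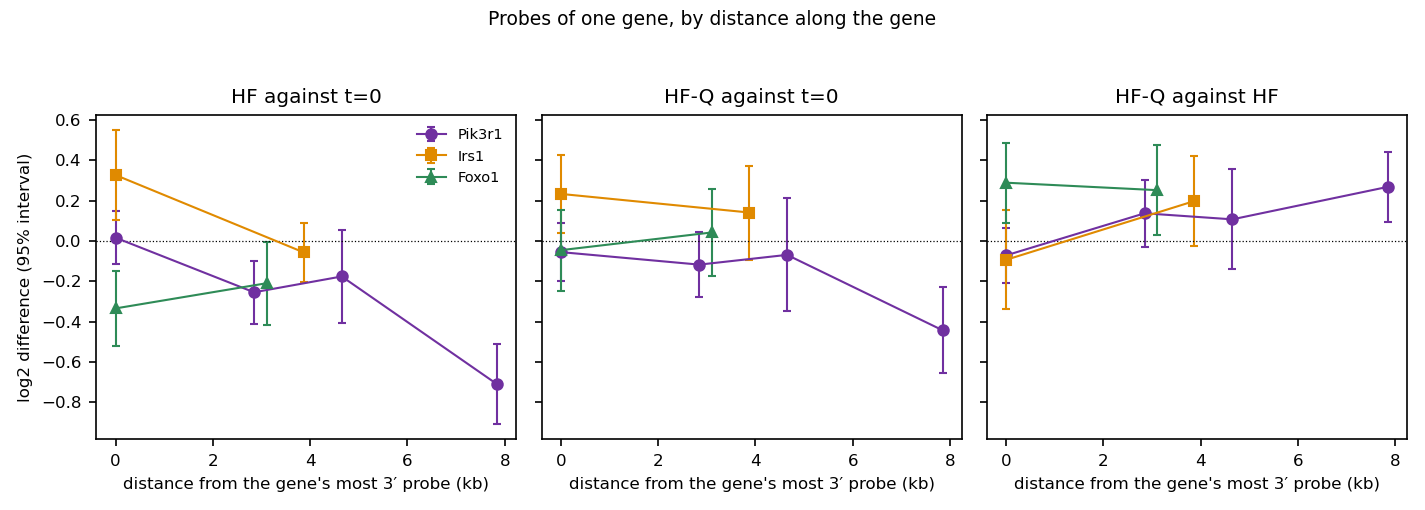
Log2 difference (vertical axis, with 95% interval) of each probe of Pik3r1, Irs1 and Foxo1 against its distance in kb from the gene's most 3′ probe (horizontal axis), for the 3 comparisons. The Pik3r1 probes run from 0.02 to -0.71 in HF against t=0, with the farthest probe lowest, while both Foxo1 probes lie below 0.

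The most 5′ probe of Pik3r1 minus the mean of the other 3 was -0.85 ± 0.25 (mean ± SD) in t=0, from -1.24 to -0.46. In HF it was -1.43 ± 0.13, from -1.69 to -1.26, and in HF-Q -1.22 ± 0.22, from -1.63 to -0.84. The HF and t=0 ranges of this contrast did not overlap, and it was formed after the values were seen and not tested. After taking out group means, correlations between the 4 probes over the 36 mice ran from 0.05 to 0.64.

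Akt1 and Akt2 are the serine/threonine kinases that carry the signal onward, and Akt2 is the form best known for glucose handling. Probe A_51_P237553 of Akt1 (mm8, chr12:113101676-113101735, minus strand) is printed in 10 spots, whose SD within an array had a median of 0.22. Their mean varied between mice of a group with an SD of 0.11. The SD within an array includes any constant of each spot, which cancels between mice, so the 2 SDs are not alike. Its log2 levels were 11.80, 11.95 and 12.15 in t=0, 11.95, 12.01 and 12.28 in HF, and 11.89, 12.03 and 12.29 in HF-Q. All 12 HF mice lay above the t=0 median with wide overlap, and the difference of 0.11 ± 0.05 in HF against t=0 did not pass (adjusted p = 0.124). HF-Q against HF was 0.02 ± 0.05 (95% interval -0.09 to 0.12; adjusted p = 0.891), and HF-Q against t=0 was 0.13 ± 0.05 (adjusted p = 0.117). The dim Akt1 probe A_52_P418014, whose coordinates span 9267 bases (mm8, chr12:113110106-113119372), had medians of 6.99, 6.86 and 6.91, and its highest HF-Q value of 7.96 was again replicate 2.

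For Akt2, probe A_52_P2977 (mm8, chr7:27347600-27347659, plus strand) had log2 levels of 9.87, 10.08 and 10.36 in t=0, 10.06, 10.27 and 10.44 in HF, and 10.07, 10.33 and 10.51 in HF-Q. Both groups at 12 weeks lay above t=0 with overlap, 11 of 12 HF-Q mice and 10 of 12 HF mice above its median. HF-Q against t=0 was 0.20 ± 0.06 (95% interval 0.08 to 0.32; adjusted p = 0.0283), or 1.15-fold, and HF against t=0 was 0.16 ± 0.06 (adjusted p = 0.0528). With slide as a block the first was 0.18 (adjusted p = 0.0708), with HF-Q higher on 7 of 9 slides and slide differences from -0.11 to 0.42, and with median centring after normexp it was 0.27 (adjusted p = 0.295). Without HF-Q replicate 2 the first was 0.22 (adjusted p = 0.0140, limma). The other probe, A_51_P408044 (mm8, chr7:27345714-27345854), had medians of 9.47, 9.44 and 9.46 and a difference of -0.02 ± 0.04 in HF-Q against t=0 (adjusted p = 0.857). In HF-Q against t=0 that probe thus lay near 0 while A_52_P2977 rose. In HF against t=0 the 2 probes had opposite signs. A_51_P408044 was at -0.09 ± 0.05 (adjusted p = 0.192, limma), with 10 of 12 HF mice below the t=0 median. Of 13 alternatives, 1 called it and 1 turned its sign.

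Foxo1, the transcription factor that drives gluconeogenic genes when insulin is low, had 2 bright probes that moved together over the mice, with a correlation of 0.87 after taking out group means. Probe A_52_P453884 (mm8, chr3:52437296-52437355, plus strand) had log2 levels of 10.51, 11.06 and 11.25 in t=0, 10.32, 10.57 and 11.09 in HF, and 10.61, 10.89 and 11.52 in HF-Q. HF lay lowest, with 11 of 12 mice below the t=0 median, and all 12 HF-Q mice exceeded the HF median, though every pair of groups overlapped. HF against t=0 was -0.33 ± 0.09 (95% interval -0.52 to -0.15; adjusted p = 0.0105), a level 1.26 times higher in t=0, and with slide as a block -0.32 (adjusted p = 0.0472). HF was lower on 7 of 9 slides, from -0.93 to 0.20, and with median centring after normexp the difference was -0.21 (adjusted p = 0.258). HF-Q against HF was 0.29 ± 0.10 (95% interval 0.09 to 0.49; adjusted p = 0.123), higher on 8 of 9 slides, from -0.19 to 0.78. It did not pass, and ran from 0.25 to 0.34 over the 14 alternatives, none of which called it (lowest adjusted p = 0.0509).

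The second Foxo1 probe, A_51_P138044 (mm8, chr3:52434190-52434249), had log2 levels of 11.52, 11.98 and 12.38 in t=0, 11.24, 11.68 and 12.24 in HF, and 11.54, 12.01 and 12.62 in HF-Q. HF again had the lowest median, and the groups overlapped. Its difference was -0.21 ± 0.10 (adjusted p = 0.135) in HF against t=0 and 0.25 ± 0.11 (adjusted p = 0.247) in HF-Q against HF. Both probes lay near 0 in HF-Q against t=0, at 0.04 and -0.05 (adjusted p = 0.844 and 0.813). The HF against t=0 difference was called in 6 of 13 alternatives, among them normexp and loess at -0.25 (adjusted p = 0.0329).

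Foxo3a, a relative of Foxo1 now named Foxo3, was near the background. Its probes A_51_P145507 (mm8, chr10:41874361-41874420, minus strand) and A_52_P373852 (mm8, chr10:41869156-41869215) read 1.71 and 1.69 times background in Cy5 and were well above it on 9 and 14 of 36 arrays. Their medians as log2 ratio to the pool were -0.99 and -0.89 in t=0, -1.02 and -1.003 in HF, and -0.99 and -0.93 in HF-Q. Fitted with all 41174 probes of the array after normexp and loess, their differences lay between -0.06 and 0.04 in the 3 comparisons, and none was called (limma, lowest adjusted p = 0.580). That scale differs from the ratios above, whose means were -0.94 and -0.89 in t=0, -1.05 and -1.03 in HF, and -0.94 and -0.92 in HF-Q. On the ratio scale both probes were lowest in HF, while the fit put A_51_P145507 at 0.04 in HF against t=0. Differences of the ratios were not tested.

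Gsk3b, the kinase that restrains glycogen synthase until Akt phosphorylates it, was measured by 2 dim probes. A_51_P514412 (mm8, chr16:38107140-38110785, plus strand) had medians of 7.40, 7.28 and 7.38 in t=0, HF and HF-Q, and A_52_P641629 (mm8, chr16:38162670-38162729) had 7.02, 6.97 and 6.97. The groups overlapped for both. The largest difference was that of A_52_P641629 in HF against t=0, -0.18 ± 0.08 (adjusted p = 0.0934). With quercetin against HF the probes gave 0.10 ± 0.06 and 0.12 ± 0.08 (adjusted p = 0.440 and 0.504).

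Set side by side, the 15 differences of HF-Q against HF had a median of 0.11, with 13 above 0, and all 21781 probes had a median of 0.013, with 54.8% above 0. The extremes were -0.09 for the bright Irs1 probe and 0.29 for Foxo1, and the 95% intervals together ran from -0.34 to 0.49. The median of the 15 was 0.08 without HF-Q replicate 2 and 0.12 without HF replicate 5, beside 0.0047 and 0.011 for all probes. Without replicate 2, 14 of the 15 signs were kept. When arrays were centred on their median after normexp, the median of the 15 was 0.03 and that of all probes was -0.073. In HF against t=0 the median of the 15 was -0.09 beside -0.0047 for all probes, and in HF-Q against t=0 it was -0.015 beside 0.014. The probes of 1 gene share its transcript and are not independent.

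**Figure D3:**
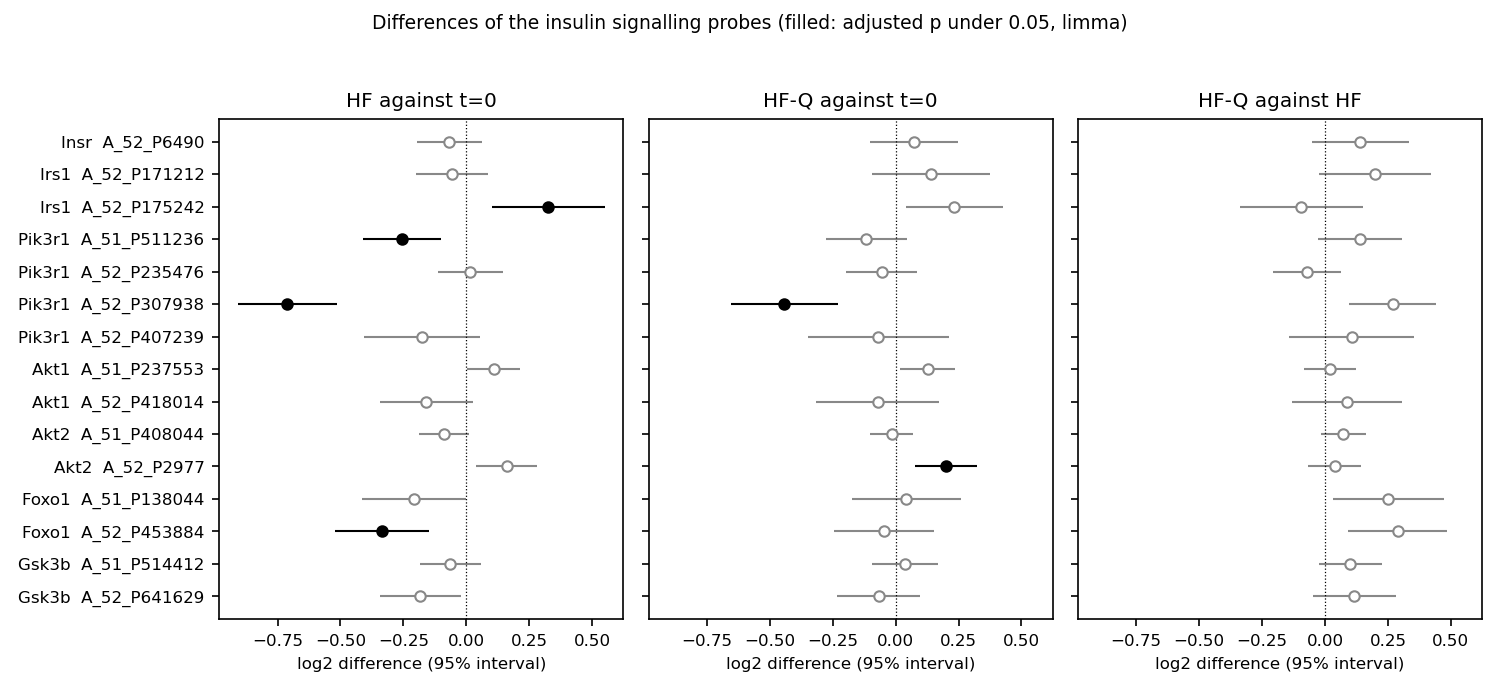
Log2 difference with 95% interval (horizontal axis) of the 15 probes (rows) in HF against t=0, HF-Q against t=0 and HF-Q against HF, from limma on 12 against 12 mice; filled points have an adjusted p under 0.05. Filled points number 4, 2 and 0, and Pik3r1 A_52_P307938 lies farthest from 0 at -0.71.

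Between mice within a group, the 7 genes were compared by the brightest probe of each, those of Insr and Gsk3b being dim. Probes of 1 gene had correlations from -0.03 for Irs1 to 0.87 for Foxo1, so a low value cannot show that genes vary apart. Over 21 pairs of brightest probes, Pearson's r of the deviations from group means ran from -0.42 to 0.42, and no pair passed after adjustment over the 21 (permutation within groups, 3 pairs with an unadjusted p under 0.05). Akt1 and Akt2 had r = 0.42 (permutation p = 0.0154, adjusted p = 0.162) and rho = 0.43 (permutation p = 0.0145, adjusted p = 0.152). Without the 2 mice farthest from the median of Akt1, r was 0.41, with slide as a term 0.41, and within groups it was 0.37 in t=0, 0.25 in HF and 0.64 in HF-Q. Akt1 and Gsk3b had r = -0.42 (permutation p = 0.0149, adjusted p = 0.162) and rho = -0.42 (permutation p = 0.0130, adjusted p = 0.152), with r = -0.33 without the 2 farthest mice, -0.38 with slide as a term, and -0.13, -0.46 and -0.67 within t=0, HF and HF-Q. Irs1 and Foxo1 had r = 0.35 (permutation p = 0.0428, adjusted p = 0.299) and rho = 0.34 (permutation p = 0.0503, adjusted p = 0.264), with r = 0.25 without the 2 farthest mice and 0.31 with slide as a term. Within groups the sign turned, at -0.34 in t=0, 0.50 in HF and 0.65 in HF-Q, a difference that was not tested.

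The genes whose levels over the 36 arrays were most like those of the called members, by Pearson's r with the member's brightest probe, are given as a description, since all points share the group differences. The brightest probes of Pik3r1 (A_52_P407239) and Foxo1 (A_51_P138044) are not the called ones, and that of Pik3r1 had a correlation of only 0.37 with the called A_52_P307938. For Foxo1 they were Cobll1 (r = 0.84), Npc1 (0.79), the lysosomal cholesterol transporter, and Dennd5b (0.79). For Irs1 they were Cnksr3 (0.77), Bcl6 (0.74), a transcriptional repressor, and Zrsr1 (0.71). For Pik3r1 they were Csrnp1 (0.75), Phlda1 (0.72) and Socs3 (0.66), the last a feedback inhibitor of cytokine signalling that also acts on insulin signalling. For Akt2 they were Slc12a4 (0.71), Mvp (0.68) and Igsf8 (0.67).

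Around the 9 components, 72 other genes of the pathway in 6 arms were counted by their brightest probe, and 67 were measured. In HF against t=0, 9 were called higher (13.4%) and 5 lower (7.46%), beside 13.4% and 7.68% of all 13042 genes. For HF-Q against t=0, 8 were called higher (11.9%) and 3 lower (4.48%), beside 7.45% and 5.41%. With quercetin against HF, 1 was called higher and 0 lower (limma; 7 of the 67 had an unadjusted p under 0.05, in either direction), beside 1.14% and 1.08%. The medians of the 67 genes were 0.03, 0.03 and -0.0098 in that order.

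The 20 brakes on the pathway are proteins that dephosphorylate, phosphorylate or bind its components. Of these, 4 (20%) were called higher and 1 (5%) lower in HF against t=0, beside 13.4% and 7.68% of all genes. Their median was 0.14 beside 0.020 over all genes. Enpp1, a membrane protein that inhibits the receptor, rose by 0.40 ± 0.06 (SE; adjusted p = 7.3e-05), from 10.85, 11.11 and 11.43 in t=0 to 11.33, 11.53 and 11.77 in HF. Ptpn1, the tyrosine phosphatase that acts on the receptor, rose by 0.34 ± 0.08 (adjusted p = 0.00420), Prkce, a protein kinase C, by 0.27 (adjusted p = 0.0158) and Phlpp2, an Akt phosphatase, by 0.21 (adjusted p = 0.0102). The gene called lower was Grb14, an adaptor that inhibits the receptor, which fell by 0.20 (adjusted p = 0.0312). It falls outside the naming rule for this comparison and was named after its values were seen.

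In HF-Q against t=0, 6 of the 20 brakes (30%) were called higher and 1 (5%) lower, beside 7.45% and 5.41% of all genes. Enpp1 rose by 0.46 ± 0.07 (adjusted p = 0.000143), and its 12 HF-Q mice read 11.40, 11.55 and 11.97. Socs1 rose by 0.40 (adjusted p = 0.0263), Prkce by 0.32 (adjusted p = 0.00284), Dok1 by 0.30 (adjusted p = 0.0239), Ptpn1 by 0.28 (adjusted p = 0.0388) and Phlpp2 by 0.20 (adjusted p = 0.0226). Grb14 fell by 0.38 ± 0.06 (adjusted p = 0.000177), from a median of 13.20 in t=0 to 12.81. None of the 20 was called in HF-Q against HF, beside 1.14% of all genes called higher and 1.08% lower. There 2 of the 20 had an unadjusted p under 0.05 (limma), and their median was -0.04.

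Among 10 measured genes of the receptor arm and its adaptors, 2 (20%) were called higher and 3 (30%) lower in HF against t=0. The shares of all genes were 13.4% and 7.68%. The median of the 10 was 0.05. Ceacam1, which promotes insulin clearance by the liver, fell by 0.40 ± 0.09 (adjusted p = 0.00196) and the adaptors Crk and Gab1 fell by 0.25 (adjusted p = 0.00213) and 0.20 (adjusted p = 0.0265), while the insulin-degrading enzyme Ide rose by 0.18 (adjusted p = 0.0256). The other gene called higher was Shc1, an adaptor, by 0.13 (adjusted p = 0.0424), named after its values were seen. Ceacam1 also fell in HF-Q against t=0, by 0.36 ± 0.06 (adjusted p = 0.000668) and Irs4 fell by 0.25 (adjusted p = 0.0242). These were 2 called lower of 10 (20%) and 0 higher, beside 5.41% and 7.45% of all genes. Gab1, which binds phosphoinositide 3-kinase, was the only 1 of the 67 genes called in HF-Q against HF. It was higher with quercetin by 0.27 ± 0.06 (adjusted p = 0.0184), with medians of 7.53 in t=0, 7.30 in HF and 7.60 in HF-Q and overlapping ranges. Its call was lost in 5 alternatives: slide as a block, the replicate number as a block, loess without background correction, median centring, and the scanner's processed log ratios.

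None of the 8 measured genes of the PI3K, PDK1 and Akt arm and none of the 2 measured FoxO and GSK3 relatives was called in any comparison (limma; for the first, 2, 1 and 1 had an unadjusted p under 0.05 in HF against t=0, HF-Q against t=0 and HF-Q against HF, and for the second none). In the mTOR arm, 1 of 14 (7.14%) was called higher and 1 lower in HF against t=0, beside 13.4% and 7.68% of all genes. They were Mlst8 at 0.22 ± 0.06 (adjusted p = 0.0116) and, named after its values were seen, Rictor at -0.18 (adjusted p = 0.0481). None of the 14 was called in the other comparisons, where 3 in HF-Q against t=0 and 0 in HF-Q against HF had an unadjusted p under 0.05 (limma). In the Ras and MAPK arm, 2 of 13 (15.4%) were called higher and 0 lower in HF against t=0, beside the same shares of all genes. Among the 2, named after its values were seen, was the phosphatase Ptpn11, which rose by 0.17 (adjusted p = 0.0346). Hras rose in HF-Q against t=0 by 0.31 ± 0.07 (adjusted p = 0.00543) and Ptpn11 by 0.16 (adjusted p = 0.0485). These were 2 of 13 (15.4%), beside 7.45% of all genes called higher. None of the 13 was called in HF-Q against HF (limma; 2 had an unadjusted p under 0.05).

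**Figure D4:**
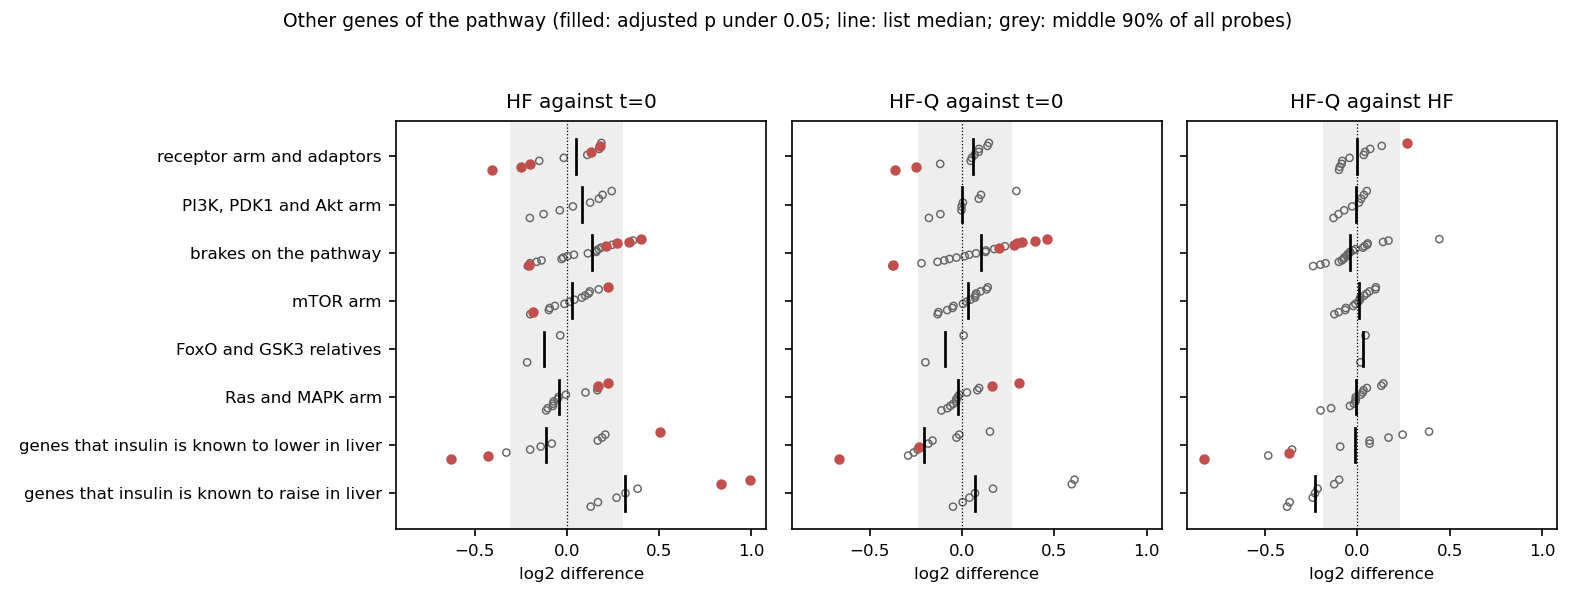
Log2 difference (horizontal axis) of each measured gene, by its brightest probe, in 6 arms of the pathway and 2 lists of genes that insulin moves in liver (rows), for the 3 comparisons; filled points have an adjusted p under 0.05, a line marks each list's median and grey marks the bulk of all probes, from -0.30 to 0.30 in HF against t=0. The brakes on the pathway have medians of 0.14, 0.10 and -0.04 in the order of the panels, and the genes that insulin is known to raise have 0.32, 0.07 and -0.23.

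Genes that insulin is known to raise in liver, such as the lipogenic enzymes, had 7 of 7 differences above 0 in HF against t=0. Of all 13042 genes, 7178 lay above 0. The median of the 7 was 0.32, and 2 were called, beside 13.4% of all genes called higher. They were Pnpla3, at 0.99 ± 0.29 (adjusted p = 0.0165), and fatty acid synthase Fasn, at 0.84 ± 0.23 (adjusted p = 0.0106). Fasn read 15.08, 15.88 and 17.45 in t=0, 15.87, 16.94 and 17.48 in HF and 15.30, 16.66 and 17.97 in HF-Q, with wide overlap. None of the 7 was called in HF-Q against t=0 (limma; 1 had an unadjusted p under 0.05; median 0.07). None was called in HF-Q against HF either, and 0 had an unadjusted p under 0.05 (limma). There 7 of 7 lay below 0, beside 6744 of all 13042 genes, with a median of -0.23. HF against t=0 and HF-Q against HF hold the same HF mice, so their signs are not independent.

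Genes that insulin is known to lower were split. In HF against t=0, 1 of 10 measured was called higher and 2 lower, beside 13.4% and 7.68% of all genes: Pdk4, an inhibitor of pyruvate dehydrogenase, rose by 0.51 ± 0.12 (adjusted p = 0.00315), and, named after their values were seen, Angptl4 fell by 0.63 (adjusted p = 0.0477) and Ppargc1a, a coactivator of gluconeogenic genes, fell by 0.43 (adjusted p = 0.0447). Beside 1.08% of all genes called lower in HF-Q against HF, 2 of the 10 were: Insig2, which holds back the maturation of SREBP, fell by 0.83 ± 0.15 (adjusted p = 0.00233) and Cited2 fell by 0.37 ± 0.10 (adjusted p = 0.0477). Beside 5.41% called lower in HF-Q against t=0, 2 of the 10 were: Insig2 fell by 0.67 ± 0.17 (adjusted p = 0.0114) and Sesn3, a FoxO target, by 0.24 ± 0.06 (adjusted p = 0.00887). The medians of the list were -0.11, -0.014 and -0.21 in HF against t=0, HF-Q against HF and HF-Q against t=0.

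Clock genes moved with the quercetin comparison, and the time of day at which each mouse was killed is not given in the sources used here. In HF-Q against HF, 5 of 14 measured were called higher and 2 lower, beside 1.14% and 1.08% of all genes. The core activators Arntl and Clock fell by 1.00 ± 0.19 (adjusted p = 0.00340) and 0.46 ± 0.09 (adjusted p = 0.00437). Those called higher were Ciart at 1.03, Dbp at 0.92, Tef at 0.63, Per3 at 0.42 and Nr1d2 at 0.42, with adjusted p from 0.00414 to 0.0143. In HF against t=0, 1 of 14 was called higher and 2 lower, Nfil3 at 0.53 ± 0.16 (adjusted p = 0.0177), Bhlhe41 at -0.28 ± 0.08 (adjusted p = 0.0129) and, named after its values were seen, Per3 at -0.28 (adjusted p = 0.0379). None was called in HF-Q against t=0 (limma; 1 had an unadjusted p under 0.05). Their part in the differences of Foxo1, Pik3r1 and Gab1 was not tested.

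Markers of other liver cells were counted as well. Of all genes, 13.4% were called higher and 7.68% lower in HF against t=0. The shares were 7.45% and 5.41% in HF-Q against t=0, and 1.14% and 1.08% in HF-Q against HF. In HF against t=0, 1 call among 6 genes is 16.7%, near the share of all genes called higher. The mean log2 level of 5 biliary markers lay from 8.86 to 9.62 in t=0, from 9.25 to 9.95 in HF and from 9.02 to 9.47 in HF-Q; 3 of 5 were called higher in HF against t=0 and 1 of 5 was called lower in HF-Q against HF. For 6 Kupffer cell markers the ranges were 10.29 to 11.99, 10.97 to 12.00 and 10.90 to 11.74, with 1 called higher in each comparison against t=0. All 6 lay higher in HF than in t=0, with a median of 0.36 beside 0.020 over all genes. All 6 also lay higher in HF-Q than in t=0, with a median of 0.32 beside 0.022. An unadjusted p under 0.05 (limma) was seen for 4 and 5 of them in that order. The 2 comparisons share the t=0 mice. In HF-Q against HF their median was -0.018. The 3 measured red cell markers ranged from 11.22 to 11.87, from 11.54 to 12.59 and from 11.69 to 12.27, with 1 called higher in HF against t=0, and 2 higher and 1 lower in HF-Q against t=0. Of 6 endothelial markers, 1 was called higher in HF-Q against HF, and 1 higher and 1 lower in HF against t=0, with mean levels of 10.21 to 10.42, 10.19 to 10.45 and 10.26 to 10.46. Of 5 lymphocyte markers, 1 was called higher in each comparison against t=0, with mean levels of 7.33 to 8.01, 7.41 to 7.97 and 7.46 to 8.19.

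Of the 7 hepatocyte markers, 1 was called lower in HF against t=0 and 2 in HF-Q against t=0, beside 7.68% and 5.41% of all genes. The mean level of the 7 stayed between 15.63 and 16.24 in all groups. None of the 6 stellate cell markers was called (limma; 0 had an unadjusted p under 0.05 in each comparison; mean levels of 8.91 to 9.40, 9.02 to 9.62 and 9.14 to 9.46), nor the single measured adipocyte marker, Cfd, which ranged from 6.33 to 10.73, from 6.21 to 10.21 and from 6.39 to 10.12, nor the 7 pancreas markers (limma; 2 had an unadjusted p under 0.05 in HF-Q against t=0, 0 in the others). Each measured marker was well above background in Cy5 on 28 or more of 36 arrays, with Ins2 on 28 and Cfd on 33. The part of any of these cells in the differences of Pik3r1, Foxo1, Irs1 and Akt2 was not tested. Without HF replicate 5 the differences of HF against t=0 were -0.72 for Pik3r1 A_52_P307938, -0.25 for A_51_P511236, -0.32 for Foxo1 A_52_P453884 and 0.33 for Irs1 A_52_P175242, all called, at adjusted p up to 0.0371.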

How the data were processed

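Liver RNA of 36 mice was hybridised to 36 Agilent 4×44 K whole-mouse arrays on 9 slides of 4, and every slide held all 3 groups. Scanner output, as deposited, holds for each spot the median intensity and background in Cy5 and Cy3 and the log10 ratio of signals processed by Feature Extraction (10.5.1.1 per the submitters' notes, another version in the paper's methods), on build mm8. The authors' table holds log2 values of 23256 spots: checked against the scanner intensities, differences between arrays equal those of log2 Cy5 over Cy3 without background subtraction or loess, centred to a common array median, to within 5.03e-06. Leaving the background in makes differences of dim probes smaller.

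Here spots of a probe were averaged, and groups from the sample titles were compared pairwise on 24 arrays with limma 3.58.1 (two-sided moderated test from lmFit and eBayes, adjusted after Benjamini and Hochberg) in R 4.3.3. The block of slides, other scales, filters and tests were alternatives. The number of arrays limits the precision. The fit was run on simulated data, with noise drawn independently for each probe and array. The shifts set there were larger than nearly all differences of the 15 probes, so smaller ones were not tested by it. A probe belonged to a component by its name in the files or its accession's current symbol in RefSeq. Named were every component, genes of the lists called in a comparison (at most the 15 with the smallest adjusted p), and the 3 genes most correlated with each component called. For a gene with several probes, lists use the brightest. The values of 1 gene of the lists are not reported here. The members and lists were chosen with earlier results of these data known. Replicates are separate mice. All columns of per-sample values were mapped. Figures used Python 3.11.15 and matplotlib 3.10.9.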

Additional observations from a re-analysis of the deposited data

How the results depend on the processing

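Results were recomputed under up to 14 alternatives. The fit without HF replicate 5, the pathway counts under each setting and the alternatives for the correlations were chosen after seeing the data. Replicate numbers are not known to pair mice: deviations of same-numbered mice had median correlations of -0.0097 in HF-Q against HF, 0.06 in HF against t=0 and 0.03 in HF-Q against t=0 over 12 pairs. With the number as a replicate block, 360, 4636 and 2372 probes, 0, 6 and 2 member probes and 0, 13 and 10 pathway genes were called in that order, beside 513, 4645 and 2596, 0, 4 and 2, and 1, 14 and 11 without it.

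In HF-Q against HF, the number of member probes called became 1 with normexp and loess, over the same probes and over all probes. Pathway genes called became 0 with loess without background correction, median centring, processed log ratios, slide as a block or the replicate block, and 2 without HF replicate 5. All probes called became 77 with median centring and 210 with the slide block. With median centring, 2 member probes were called in HF against t=0, and in HF-Q against t=0 396 probes, 0 member probes and 1 pathway gene; the slide block left 1 member probe there. Median centring moved the share of calls that were higher from 51.3% to 85.0% in HF against t=0 and from 63.4% to 32.5% in HF-Q against HF, and in HF against t=0 the median of all probes lay at 0.096 instead of -0.0047. Member pairs correlated after adjustment became 1 with loess. The cause of these changes was not tested. The other 108 counts stayed within 1.5 times.

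Of 590 single-probe values, 30 changed sign, none of them called in the main setting, and the largest of those was 0.20 there. In HF-Q against HF they were Irs1 A_52_P171212 (-0.0097 with normexp and loess, over the same and over all probes), Akt1 A_52_P418014 (-0.013 without background correction, -0.053 with processed log ratios, -0.0049 without HF-Q replicate 2; without HF replicate 5 it kept its sign, at 0.098), Akt1 A_51_P237553 (-0.0059 with median centring, -0.0010 with the slide block), Akt2 A_51_P408044 (-0.044) and Akt2 A_52_P2977 (-0.0071), both with median centring. In HF against t=0 they were Irs1 A_52_P171212 (0.012 with normexp and loess on either probe set, 0.016 without background correction, 0.015 with median centring, 0.21 with processed log ratios, 0.024 with quantile normalization), Pik3r1 A_52_P235476 (-0.0063 on either probe set, -0.017, -0.0084 and -0.016 with no background correction, processed log ratios and quantile normalization), Insr A_52_P6490 (0.025, 0.0019 and 0.016 in the same 3 settings) and Akt2 A_51_P408044 (0.031 with median centring). In HF-Q against t=0 they were Gsk3b A_51_P514412 (-0.028 on either probe set, -0.026 without background correction, -0.0094 with median centring, -0.027 with processed log ratios) and Foxo1 A_52_P453884 (0.037 with median centring). Signal over background limits what the dim probes of Insr, Irs1, Akt1 and Gsk3b can show. The methods' t-test called 393, 4423 and 2483 probes after Benjamini-Hochberg adjustment and 3362, 7608 and 5693 at an unadjusted p under 0.05.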
